A study of Homo sapiens with 6 samples.

Results

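LC3-only stretches are runs of bases that lay in the broad domains of both LC3 replicates and in the domains of neither lamin B1 replicate. They were found by intersecting the 4 domain lists of a chromatin immunoprecipitation sequencing (ChIP-seq) study. There were 365 of them, covering 180 Mb, among 3253 stretches of constant membership that covered 1742 Mb in at least 1 list. The cells were IMR90, a human lung fibroblast line, grown untreated under physiological oxygen (3%). All samples came from this single condition: 2 replicates precipitated with an antibody against lamin B1, 2 with an antibody against LC3, and 2 of input chromatin, which is not analysed here. Whether replicates were separate cultures is not given by the labels, and the spread between them may be technical.

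Lamin B1 is a filament protein of the nuclear lamina, the mesh under the inner nuclear membrane. Chromatin that touches it forms lamina-associated domains, long blocks of mostly silent and gene-poor sequence, separated by inter-domains in which more active genes lie. LC3 is a ubiquitin-like protein that becomes attached to a membrane lipid during autophagy and recruits cargo to autophagosomes. A pool of LC3 is also found in the nucleus. The title of the study names the degradation of the nuclear lamina by autophagy. Stretches with LC3 and without lamin B1 are the places where domain lists of the 2 proteins part in favour of LC3.

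The lists hold the positions of domains and no height, score or read count. Depth is therefore unknown, and a missing domain shows only that none was called. The lamin B1 lists held 613 and 593 domains, and the LC3 lists held 437 and 475. Membership of the stretches was fixed by all 4 lists, so their number, length and edges are given as descriptions without a test. With 2 lists for each antibody, no exact permutation test of a value per list can reach p = 0.05.

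LC3 left the lamin B1 domains in 3 ways. Of the 365 stretches, 74 filled the whole space between 2 lamin B1 domains (bridges), 256 ran outward from a single lamin B1 domain (extensions), and 35 touched no lamin B1 domain. An edge counted as touching when the adjoining 1 kb lay in either lamin B1 list. Bridges made up 20.3% of the stretches but 42.4% of their length, 76.1 Mb. Extensions were 70.1% of the stretches and 40.3% of the length, 72.4 Mb. Stretches that stood alone were 9.59% by number and 17.3% by length, 31.0 Mb. These shares rest on an edge touching lamin B1 of either list. With lamin B1 of both lists required within 50 kb of the edge, bridges held 15.2% of the length, extensions 42.3% and lone stretches 42.5%.

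Each LC3 list was also set against each lamin B1 list alone. LC3 replicate 1 had 283 Mb outside lamin B1 replicate 1 and 276 Mb outside lamin B1 replicate 2. LC3 replicate 2 had 287 Mb and 265 Mb outside them. The mean of these 4 pairs was 278 ± 9.90 Mb (SD, n = 4 pairs that share lists). In the same pairs, bridges held 41.0 ± 4.5% of the length, extensions 41.1 ± 3.0% and stretches standing alone 17.9 ± 2.1%. All 3 shares in the 365 stretches lay within 1 SD of these means. Next to the rule on either side were 95.9 Mb in both LC3 lists and a single lamin B1 list, and 83.3 Mb in a single LC3 list and no lamin B1 list.

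**Figure D1:**
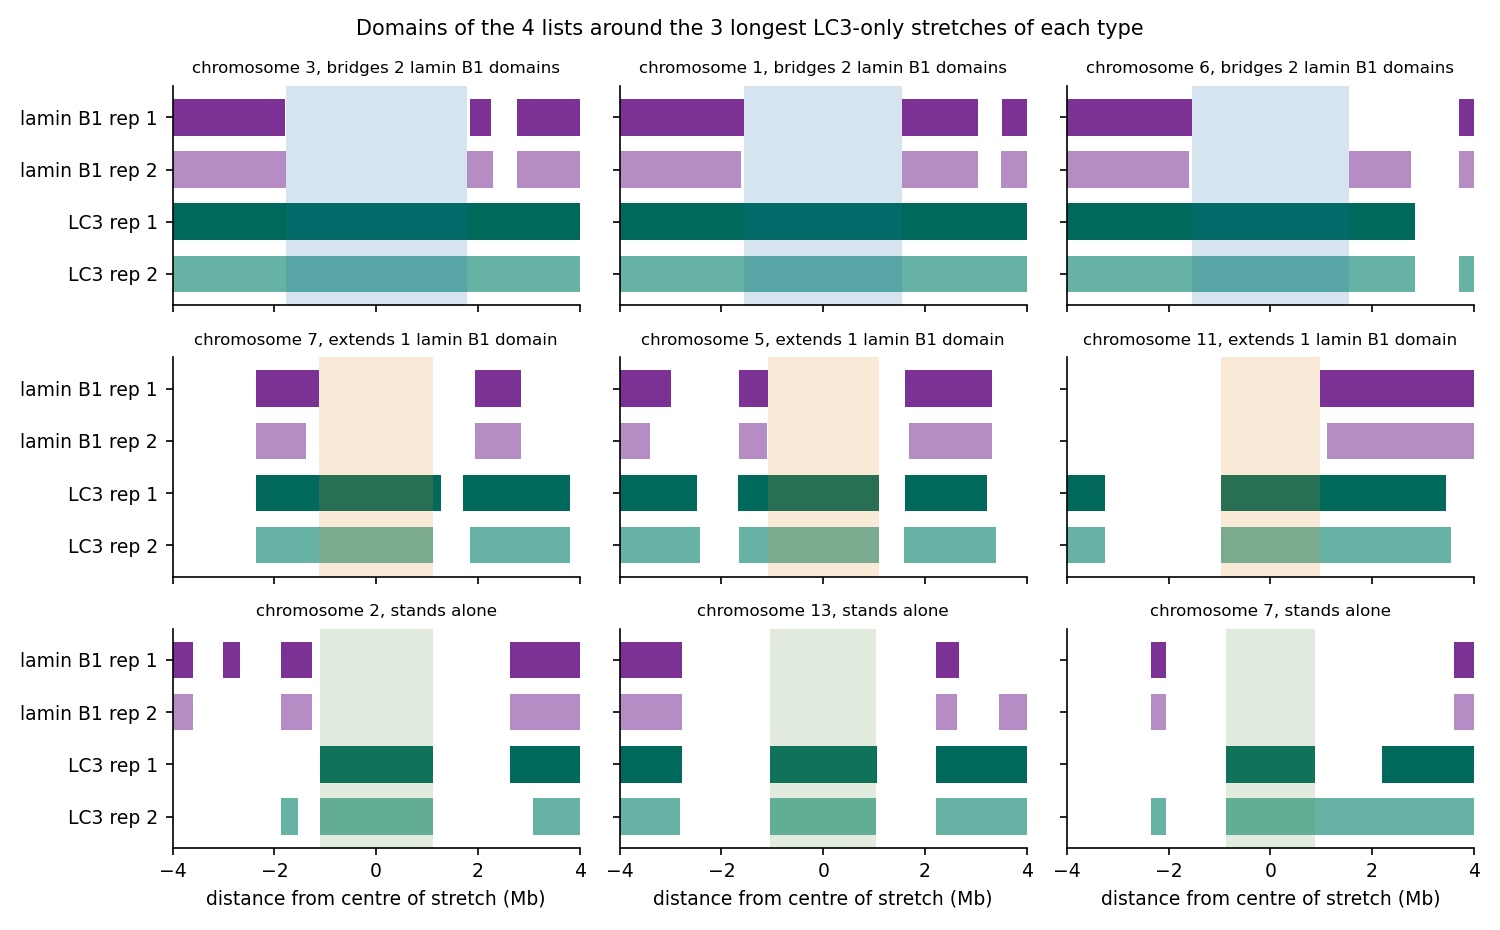
Domains of the 4 lists around the 3 longest LC3-only stretches of each type, plotted as distance from the centre of the stretch in Mb. Bars are domains and shading marks the stretch. LC3 runs unbroken through the bridges (top), stops inside the lamin B1-free space for the extensions (middle), and is separate from lamin B1 in the stretches that stand alone (bottom), except that LC3 replicate 2 runs on past the one on chromosome 7.

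The longest stretch was a bridge on chromosome 3 from 148584001 to 152144000 (GRCh37/hg19), 3.56 Mb long. The space between lamin B1 domains was 3.648 Mb in lamin B1 replicate 1 and 3.56 Mb in replicate 2. A single LC3 domain of 26.7 Mb in replicate 1 and 26.9 Mb in replicate 2 ran across it. Both antibodies thus gave nearly the same picture in their 2 lists, and the bridge was flanked by lamin B1 domains of 5.71 Mb and 0.524 Mb.

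On chromosome 1 the bridge from 84447001 to 87546000 filled a lamin B1 gap of 3.10 Mb in replicate 1 and 3.17 Mb in replicate 2. The LC3 domain across it measured 25.6 Mb in each LC3 list. On chromosome 3 the bridge from 111344001 to 113886000 filled gaps of 2.54 Mb and 2.58 Mb, within LC3 domains of 17.1 Mb and 25.04 Mb. These bridges lay in gaps whose edges differed by at most 67 kb between the lamin B1 lists. On chromosome 4 the bridge from 108840001 to 111240000 lay in gaps of 2.69 Mb and 2.51 Mb, inside the longest LC3 domain of each list, 38.5 Mb in replicate 1 and 61.0 Mb in replicate 2. The bridge on chromosome 6 from 52116001 to 55212000 rested on the weaker case. Its far flank was a domain of 1.22 Mb in lamin B1 replicate 2 only, and the gap was 3.15 Mb in that list but 5.25 Mb in replicate 1.

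Such weak flanks were a minority. In 56 of the 74 bridges, 60.4 Mb in all, both flanking domains held bases of both lamin B1 lists, and these bridges had a median length of 0.933 Mb. In the other 18, 15.7 Mb in all, at least 1 flank was in a single lamin B1 list, and the median length was 0.646 Mb. When a flank had to be in both lists at least in part, bridges held 33.6% of the LC3-only length in place of 42.4%. The flanks were unequal in size: the shorter had a median of 0.899 Mb and the longer a median of 3.598 Mb. A total of 29 bridges were longer than their shorter flank, and 6 were longer than both.

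Bridges had lengths from 0.219 to 3.56 Mb with a median of 0.826 Mb, and 28 reached 1 Mb. No bridge was shorter than 100 kb. Extensions ranged from 1 kb to 2.24 Mb with a median of 98.5 kb. Among them, 130 were shorter than 100 kb and 42 were at most 10 kb. Domain edges in the lists fall on steps of 3, 4, 5 and 3 kb, so the shortest pieces are of the size of those steps. These 130 short pieces added only 3.90 Mb, and all stretches under 100 kb were extensions. Stretches standing alone were 0.351 to 2.22 Mb long with a median of 0.813 Mb, close to that of the bridges. They are whole LC3 consensus domains, and the shortest LC3 domain was 360 kb in replicate 1 and 177 kb in replicate 2. The lack of short lone stretches therefore follows in part from the lists. Of the 180 Mb, 93.9 Mb lay in 57 stretches of at least 1 Mb.

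**Figure D2:**
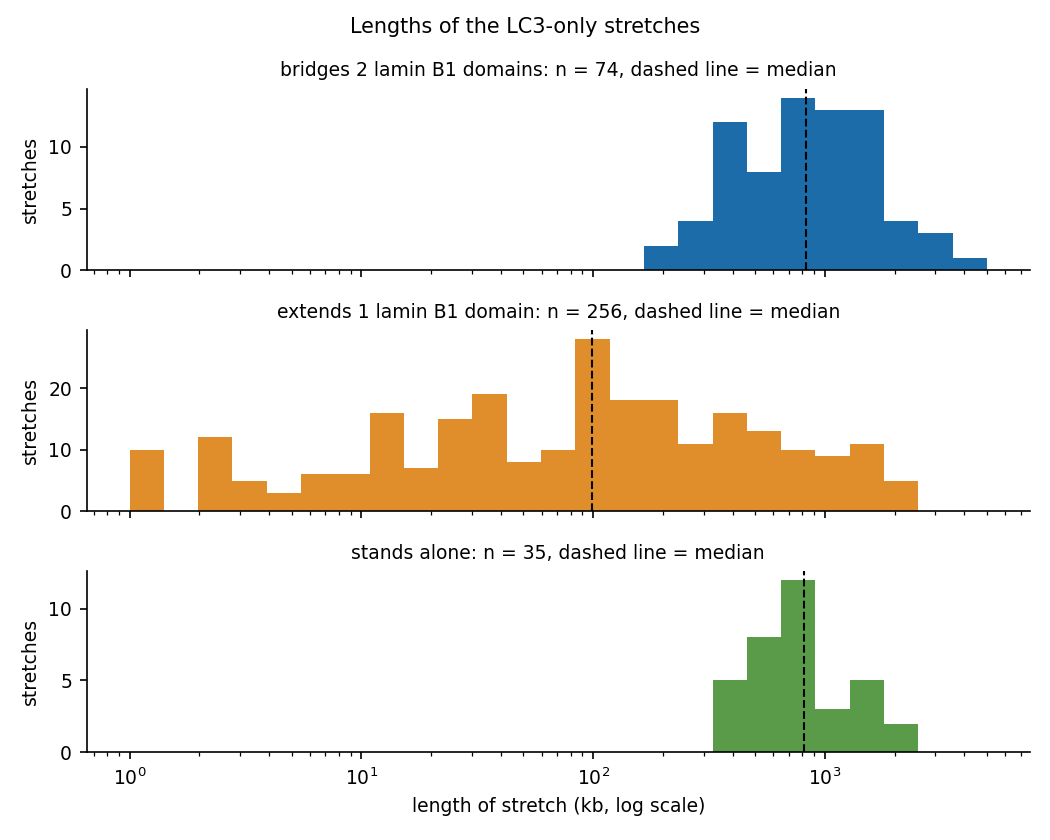
Lengths of the LC3-only stretches of each type in kb on a log axis, as numbers of stretches. The dashed lines mark medians of 826 kb for bridges, 98.5 kb for extensions and 813 kb for stretches standing alone, and short pieces occur among the extensions alone. The shortest LC3 domains of the 2 lists, 360 and 177 kb, limit how short a lone stretch is likely to be.

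The 365 stretches lay in 261 of the 422 LC3 consensus domains, which are the bases in both LC3 lists. Of these domains 46 held a bridge, and they joined 120 of the 609 lamin B1 domains of the merged lists (19.7%). A single bridge was found in 33 LC3 domains, and 13 LC3 domains held the other 41 bridges. LC3 domains with a bridge had a median length of 6.28 Mb, against 1.39 Mb for the 376 without. A domain that spans a gap and parts of both flanks has to be long, so this difference follows in part from the definition. Within a bridged LC3 domain, a median of 20.9% of the length was LC3-only.

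The LC3 domain with the most bridges was on chromosome 1 from 65770001 to 91325000. Its 6 bridges measured 1.56, 0.441, 1.08, 3.10, 0.443 and 0.406 Mb in order of position. Together with a terminal extension of 0.023 Mb they came to 7.04 Mb, or 27.6% of the domain. A domain of 34.1 Mb on chromosome 5, from 91695001 to 125778000, held 5 bridges. Domains on chromosome 4 (90080001 to 128610000), chromosome 3 (142770001 to 169389000) and chromosome 6 (114360001 to 134229000) held 4 bridges each. LC3-only sequence took 17.7%, 23.6% and 22.2% of these last 3 domains. In each of these LC3 domains, lamin B1 was therefore present over most of the length and interrupted several times.

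The bridges can also be read from the side of lamin B1, as gaps between its domains. Merged over the 2 lists, lamin B1 domains left 586 gaps, and LC3 filled 74 of them over every base in both lists (12.6%). No LC3 consensus base was found in 293 gaps (50.0%). LC3 lay on both flanks of 148 gaps, and all 74 filled gaps were among these. Among gaps with LC3 on both flanks, the filled share fell with gap length. It was 4 of 4 up to 250 kb, 15 of 18 from 250 to 500 kb, 27 of 38 from 500 to 1000 kb, 20 of 46 from 1 to 2 Mb, 8 of 35 from 2 to 5 Mb, and 0 of 7 above 5 Mb. Over all gaps, 4 of 40, 15 of 62 and 27 of 123 were filled in the classes up to 1000 kb. In the longer classes 20 of 153, 8 of 153 and 0 of 55 were filled. The shortest class was thus filled less often than the next, and 33 of its 40 gaps held no LC3 consensus base. In a short gap, LC3 on both flanks leaves little room for a break. The part of this in the fall among flanked gaps was not tested. Filled gaps had a median of 0.826 Mb, and flanked gaps that were not filled had a median of 1.83 Mb. The caller of these domains can close short stretches without enrichment. No label or header states its settings, and a gap closed by the caller and a gap covered by LC3 cannot be told apart from the lists.

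Filling of gaps was lopsided between the antibodies. The reverse event, an LC3 gap filled over every base by both lamin B1 lists, occurred in 13 of 467 gaps (2.78%). In single lists, LC3 replicate 1 filled 16.1% of the gaps of lamin B1 replicate 1 and 17.4% of those of replicate 2, and LC3 replicate 2 filled 17.3% and 18.6%. Lamin B1 replicate 1 filled 5.07% and 5.30% of the gaps of LC3 replicates 1 and 2, and lamin B1 replicate 2 filled 3.38% and 3.09%. All 4 pairs with LC3 as the filler thus lay above all 4 pairs with lamin B1 as the filler. Replicates of the same antibody gave the level set by differences between lists of 1 protein. Lamin B1 replicate 2 filled 4.58% of the gaps of replicate 1 and the converse was 6.32%, and the values for LC3 were 6.04% and 2.65%. The LC3 lists held fewer and longer domains than the lamin B1 lists, and the part of this in the lopsided filling was not tested.

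**Figure D3:**
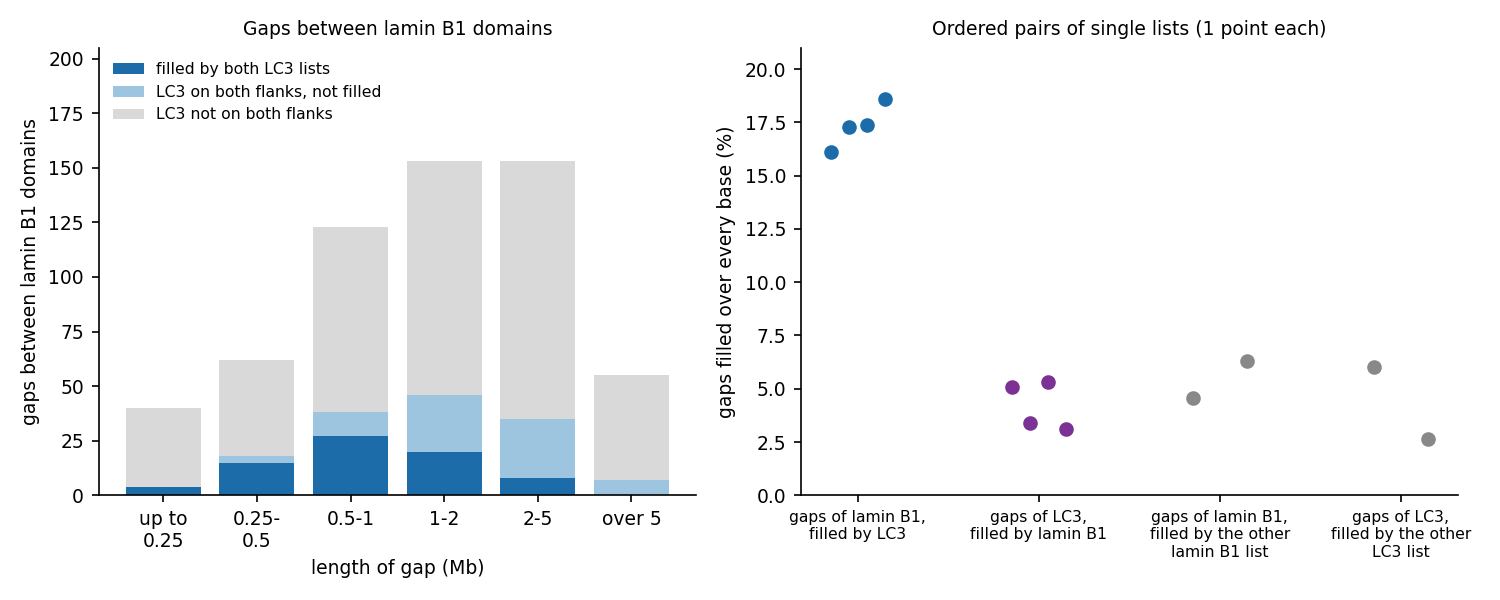
Left, number of gaps between merged lamin B1 domains by gap length in Mb, split by whether both LC3 lists filled them. Right, percent of the gaps of a list that another single list filled over every base, 1 point per ordered pair. The 4 points for LC3 in lamin B1 gaps (16.1% to 18.6%) lie above the other 8 (2.65% to 6.32%).

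The rule needed both LC3 lists, and single lists filled further gaps. Another 24 gaps were filled by a single LC3 list, 10 by replicate 1 and 14 by replicate 2. In these gaps the other LC3 list left part or all of the length uncovered. Bases in both LC3 lists covered 87.5% of the gap on chromosome 11 from 128853001, and 0% of the gap on chromosome 4 from 176886001.

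Extensions carried LC3 past the end of a lamin B1 domain and stopped inside the next gap. The longest was on chromosome 7 from 132642001 to 134880000, 2.24 Mb beside a lamin B1 domain of 1.24 Mb. The LC3 domain there ended at 135035000 in replicate 1 and at 134880000 in replicate 2, and the next lamin B1 domain began at 135705001 in replicate 1 and 135700001 in replicate 2. The LC3 domain thus crossed most of the gap and ended short of the far lamin B1 domain in both lists, and a separate domain shared by both LC3 lists began at 135609001, before that lamin B1 domain. On chromosome 5, the extension from 38352001 to 40530000 (2.18 Mb) ended at the same kb in both LC3 lists, 513 kb short of the next domain of lamin B1 replicate 1 and 594 kb short of that of replicate 2. It was longer than the 0.576 Mb lamin B1 domain that it extended.

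On chromosome 11 the extension from 34500001 to 36438000 (1.94 Mb) began at the same kb in both LC3 lists, with a lamin B1 domain of 6.86 Mb on its far side. The preceding lamin B1 domain lay 3135 kb away in replicate 1 and 3136 kb away in replicate 2. The extension on chromosome 8 from 118464001 to 120390000 measured 1.93 Mb, and the next lamin B1 domain was 6310 kb away in the nearer list. For the extension of 1.91 Mb on chromosome 15, from 38244001 to 40149000, that distance was 5855 kb. Long extensions therefore occurred both where the next lamin B1 domain was under 1 Mb away and where it was several Mb away.

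Over all extensions, the lamin B1 domain lay on the side of lower coordinates in 133 and on the other side in 123. The counts for extensions of at least 100 kb were 75 and 51. In 44 LC3 consensus domains both ends were extensions, and in 168 a single end was. Most extensions were small beside the domain they extended. Their length had a median of 5.30% of that domain, and of 20.5% for the 126 extensions of at least 100 kb. A total of 12 were longer than the lamin B1 domain.

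At most edges of the stretches, replicate lists of an antibody differed by at most 50 kb. At the lamin B1 edge of extensions, the second lamin B1 list followed the first after a median of 18 kb, and within 50 kb at 161 of 256 edges (62.9%). For bridges the median was 15.5 kb and 93 of 148 edges (62.8%) lay within 50 kb. At 21 of the 256 extension edges and 18 of the 148 bridge edges, the second list never followed within the flanking domain. The first list met was lamin B1 replicate 2 at 88 of the 148 bridge edges, replicate 1 at 50, and both in the same kb at 10. At the free edge of extensions, LC3 of a single list ran on for a median of 24.5 kb over the 256 edges, at 142 edges in replicate 1 and at 97 in replicate 2. Both lists ended in the same kb at 17 edges. In 27 of the 256 extensions, the LC3 domain of a single list ran on until it met lamin B1 again.

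Stretches standing alone were whole LC3 consensus domains clear of lamin B1. The longest was on chromosome 2 from 133065001 to 135285000, 2.22 Mb, with the same start and end in both LC3 lists. Lamin B1 ended 144 kb before it in replicate 1 and 145 kb before it in replicate 2, and resumed 1518 and 1519 kb after it. On chromosome 13, the stretch from 42834001 to 44928000 (2.09 Mb) sat inside a lamin B1 gap of 5.00 Mb in replicate 1 and 4.99 Mb in replicate 2. The LC3 domain measured 2.10 and 2.09 Mb in the 2 lists, so all 4 lists placed it as an island.

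The stretch on chromosome 7 from 77763001 to 79505000 (1.74 Mb) was an island in LC3 replicate 1, at 1.75 Mb, but belonged to an 18.96 Mb domain in LC3 replicate 2. On chromosome 1, the stretch from 146403001 to 147810000 (1.41 Mb) lay in the long lamin B1-free space of 31.7 and 31.5 Mb that contains the centromere. On chromosome 6, the stretch from 74515001 to 75918000 (1.40 Mb) lay in lamin B1 gaps of 3.49 and 3.56 Mb. The LC3 domain measured 1.42 Mb in replicate 1 and 1.40 Mb in replicate 2.

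The distance from a lone stretch to the nearest lamin B1 base had a median of 1.03 Mb, with a range from 0.121 to 5.91 Mb. None lay within 100 kb of lamin B1, 15 lay within 1 Mb, and 20 lay farther away. In 32 of the 35, 28.0 Mb in all, the LC3 domains of both single lists also stayed clear of lamin B1. In the other 3, on chromosomes 3, 7 and 10, the domain of a single list ran on into lamin B1. LC3 replicate 1 ran on past 50 of the 70 edges of lone stretches and replicate 2 past 16. Over all edges, and with both lists pooled, the median was 16.5 kb.

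The surroundings of the 3 types differed in both proteins. In the 2 Mb on either side of a bridge, lamin B1 replicates 1 and 2 covered 66.6% and 72.2% on average and LC3 replicates covered 86.1% and 87.3%. Around lone stretches, lamin B1 covered 21.6% and 20.8% and LC3 covered 32.6% and 30.0%. The whole chromosome spans, from the first to the last base in any list, had 49.3% and 48.7% in lamin B1 and 49.4% and 52.3% in LC3. Extensions lay between the other types, with 44.8% and 45.4% lamin B1 and 54.3% and 56.1% LC3. The type of a stretch sets the bases at its edges, so values close to it are part of the definition.

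**Figure D4:**
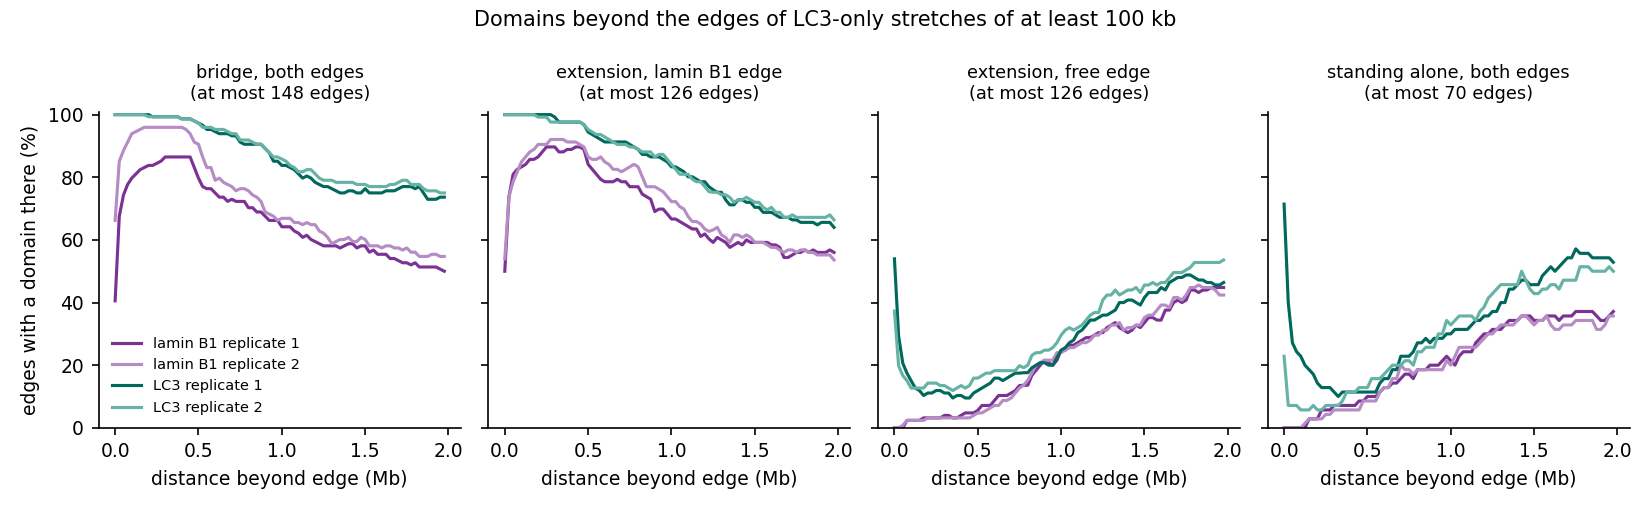
Percent of edges with a domain of each list at a given distance in Mb beyond the edge, for LC3-only stretches of at least 100 kb. Both LC3 lists stay above both lamin B1 lists beyond the edges of bridges. At 500 kb beyond the free edge of extensions, LC3 is present at 11.9% (replicate 1) and 15.9% (replicate 2) of edges and lamin B1 at 5.56% and 4.76%.

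Chromosomes 1 to 7 held 63.6% of the LC3-only sequence, 114 Mb, with 14.7 to 17.4 Mb on each. The highest amounts were 17.4 Mb on chromosome 1, 16.7 Mb on chromosome 7 and 16.7 Mb on chromosome 5. The same 7 chromosomes are also long, and relative to span chromosome 13 led with 11.8%, followed by chromosome 7 with 10.7% and chromosome 6 with 9.74%. Amounts did not follow span throughout. Chromosome X spanned 151 Mb and held 0.107 Mb, and chromosome 13 spanned 94.9 Mb and held 11.2 Mb. LC3-only sequence made up 6.32% of all spans and 13.6% of the LC3 consensus length. Chromosomes 1 to 7 also held 80.8 to 136 Mb of LC3 consensus sequence each, of 1316 Mb in all. LC3-only sequence was 11.4% (chromosome 4) to 20.7% (chromosome 7) of the LC3 consensus on these chromosomes.

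The types were unevenly spread over chromosomes. Chromosome 3 had 9 bridges of 12.6 Mb in all, which was 79.6% of its LC3-only sequence, and on chromosome 4 bridges held 71.7%. Bridges also held 65.0% on chromosome 20, 61.1% on chromosome 6 and 60.5% on chromosome 1. On chromosome 2, by contrast, 2 bridges held 14.8%, and 8 lone stretches held 6.90 Mb, the most of any chromosome. On chromosome 18 the single bridge measured 0.449 Mb, against 3.09 Mb in 3 lone stretches and 2.80 Mb in 13 extensions. Chromosomes 9 and 15 had 3.61 and 4.64 Mb of LC3-only sequence without a bridge. Bridges occurred on 15 of the 23 chromosomes, extensions on 21, and lone stretches on 17.

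A few chromosomes had almost none. Chromosomes 17 and 19 held no LC3-only stretch, chromosome 16 held 0.046 Mb, chromosome X 0.107 Mb and chromosome 22 0.632 Mb. On chromosome 16 and X these were edge pieces of 2 extensions each. Chromosome 19 held no LC3 consensus sequence at all. Chromosomes 22, 17 and 16 held 1.11, 4.35 and 7.59 Mb of it, and X held 29.1 Mb. As a share of LC3 consensus sequence, LC3-only sequence was highest on chromosome 22, at 56.8%. A single lone stretch made up 0.63 Mb of the 0.632 Mb there. The share of LC3 consensus sequence was 0.606% on chromosome 16 and 0.368% on X. Chromosome 16 had 9.58 Mb of lamin B1-only sequence (bases that both lamin B1 replicates held and no LC3 replicate did) and X had 18.3 Mb. The low values depended in part on the LC3 lists differing. On X, LC3 replicate 2 had 6.54 Mb outside lamin B1 replicate 1 and 1.78 Mb outside replicate 2, and LC3 replicate 1 had 0.679 and 2.29 Mb. On chromosome 17, LC3 replicate 2 had 1.46 and 2.77 Mb outside the lamin B1 lists, and replicate 1 had 0.042 and 0.040 Mb.

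**Figure D5:**
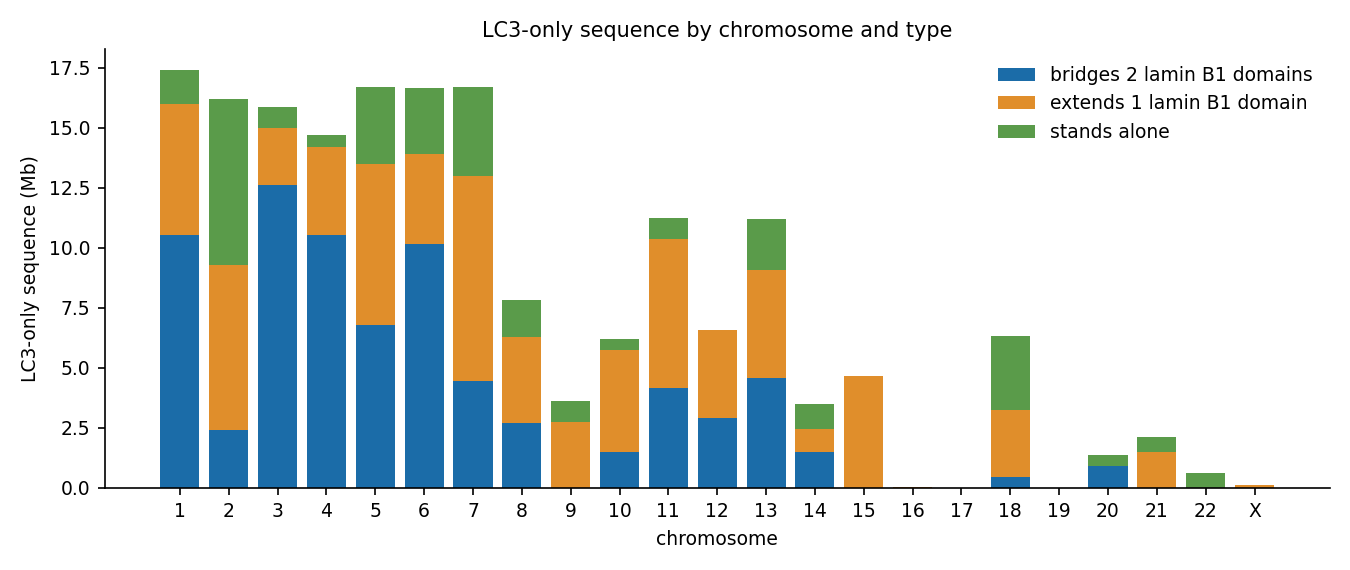
LC3-only sequence in Mb on each chromosome, stacked by type. Chromosomes 1 to 7 carry 63.6% of it. They are also long and each hold 80.8 to 136 Mb of LC3 consensus sequence. Bridges hold most of the LC3-only sequence on chromosomes 1, 3, 4, 6 and 20. Lone stretches are most extensive on chromosome 2, and chromosomes 17 and 19 carry no LC3-only sequence.

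LC3-only and lamin B1-only sequence differed in form and place. The 254 lamin B1-only stretches, 126 Mb, were sorted by the same rule with the proteins exchanged. They held 13 bridges, 166 extensions and 75 lone stretches, with 13.7%, 41.4% and 44.9% of the length. The corresponding shares for LC3-only sequence were 42.4%, 40.3% and 17.3%. Extensions thus took a like share in both classes, whereas bridges took more of the LC3-only and lone stretches more of the lamin B1-only sequence. More LC3-only than lamin B1-only sequence was found on 12 chromosomes and less on 11. The 74 and 13 bridges are the filled gaps already counted above, so the contrast in bridges is not a separate result. The lamin B1 lists held more domains than the LC3 lists. Their shortest domains were 168 and 124 kb, against 360 and 177 kb in the LC3 lists. The part of this in the contrast of lone stretches was not tested. No difference between the classes was tested, since both are defined by the same 4 lists.

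Position along the span also differed between the classes. Within 5 Mb of either end of a chromosome's span lay 3.17% of LC3-only sequence and 21.3% of lamin B1-only sequence. The ends made up 8.10% of the spans, and held 4.72% of the sequence in all 4 lists. Each span starts and stops at the outermost domain of any list, so its ends need not be chromosome ends. Where that domain was in both lamin B1 lists and in no LC3 list, lamin B1-only sequence lies at the end by construction. Chromosome 19, with a span of 15.7 Mb, held no LC3 consensus base. The part of this in the contrast was not tested. In windows of 10 Mb, 113 of 296 held no LC3-only base (38.2%). Some of these held no LC3 consensus base, such as chromosome 1 from 122220001 to 132220000, so LC3-only sequence was not possible there. Such windows were not counted apart. A total of 35 windows held 50% of the LC3-only sequence, and the 30 windows with at least 2 Mb held 80.4 Mb. The fullest window was on chromosome 3 from 150060001 to 160060000, with 4.36 Mb. LC3 consensus domains covered 100.0% of that window and the lamin B1 lists together 56.4%. Genes and sequence in these stretches were not analysed here.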

How the data were processed

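ChIP-seq of IMR90 cells was used as 1 domain list per precipitated sample (2 lamin B1, 2 LC3). The authors deposited chromosome, start and end of each domain, with no counts or scores, so depth and counting error are unknown. The submitters' processing notes name GRCh37/hg19, Bowtie2, bedtools and bcl2fastq 2.16.0.10. File names point to EDD, which calls broad domains. Its version and settings are not given in the sources used. NumPy 2.4.6 under Python 3.11.15 compared the lists at 1 kb resolution, and positions are printed 1-based. Samples were grouped by their titles. Typing of stretches was tested on simulated lists with known answers. The text names the 5 longest stretches of each type and the 3 chromosomes with the most and the fewest Mb, and further chromosomes and LC3 domains chosen after their values were seen. The members and the rules were chosen with earlier results of these data known. Alternatives omitted each list, paired same-numbered lists, and changed the minimum length, the touching distance and the definition of a filled gap. Gene lists and genes per Mb were not run, since no annotation of this build was used.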

Additional observations from a re-analysis of the deposited data

How the results depend on the processing

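Of 65 alternative values of 6 results, 38 stayed within the SD of the 4 single-list pairs or, for the number of stretches, within 1.5 times, and 27 did not. With each list left out in turn, LC3-only sequence ranged from 218 to 237 Mb, the number of stretches from 424 to 524, the share in bridges from 37.2% to 43.5%, the share standing alone from 14.9% to 20.1%, and the share of filled lamin B1 gaps from 14.2% to 15.4%. Fewer lists make the rule looser, so totals rise by construction. With the replicate block (same-numbered pairs only), the values were 274 Mb, 595.5 stretches and 17.3% of gaps. The pairing rests on replicate numbers alone and changed the share of no type beyond the SD. Outside the lamin B1 consensus, they were 275 Mb, 556 stretches and 17.1% of gaps. A minimum of 100 kb left 235 stretches. The definition of touching mattered most. With lamin B1 of both lists required within 50 kb of the edge, bridges held 15.2% and lone stretches 42.5%. With both lists required at the edge itself, bridges held 0%, extensions 7.40% and lone stretches 92.6%. With flanks in both lists at least in part, bridges held 33.6% and extensions 47.2%. Gaps filled over at least 50% made up 16.9%, and gaps up to 5 Mb were filled in 13.9%. Genes per Mb was not run. The block for types and gaps, omission of lists for gaps, the consensus for number, types and gaps, autosomes for number and gaps, joining for types and partial flanks were chosen after seeing the data. The unknown depth limits what a missing domain shows.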
